A study of Mus musculus with 48 samples.

Results

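Liver takes up glucose after a meal and makes it between meals, and 8 genes that set the direction of that traffic were followed across 4 dose levels of dichloroacetic acid (DCA), a disinfection by-product of drinking water that inhibits the kinases of pyruvate dehydrogenase. The 8 genes are Slc2a2, Gckr, Pfkfb1, Pklr, Pck1, Fbp1, G6pc and Ppargc1a, taken by symbol from the expression tables. The table of frozen liver (FROZ) listed all 8 among its 11275 genes, and the table of formalin-fixed paraffin-embedded liver (FFPE) listed 6 among its 6673 genes, without Pfkfb1 and Ppargc1a.

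Messenger RNA was measured by TempO-Seq, in which pairs of detector oligos anneal to a transcript, are ligated and are counted by sequencing. The animals were 24 male B6C3F1 mice, a hybrid strain much used in toxicology, 4 weeks of age, with 6 in each group. DCA was given in the drinking water for 6 days at 0, 1.0, 2.0 or 3.5 g/L, which corresponded to 0, 198, 313 or 427 mg/kg-d. Each animal gave 1 FROZ library from isolated RNA and 1 FFPE library from a lysate, 48 libraries in all. The study named the left lateral caudate and right medial lobes for FROZ, and the left lateral and right medial lobes for FFPE. Frozen and fixed tissue had been stored for decades, and the study reported a low RNA integrity score for the isolated FROZ RNA. The feeding state and the hour of sampling were not given in the sources used here.

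In the hepatocyte, glucose crosses the membrane through GLUT2, the product of Slc2a2, and is trapped there by phosphorylation, a step that the regulatory protein encoded by Gckr restrains when glucose is low. Glycolysis is set by fructose 2,6-bisphosphate, which the bifunctional enzyme of Pfkfb1 makes and removes, and by liver pyruvate kinase, the product of Pklr. Gluconeogenesis runs the other way through PEPCK (Pck1), fructose-1,6-bisphosphatase (Fbp1) and glucose-6-phosphatase (G6pc), and the coactivator PGC-1 alpha (Ppargc1a) raises transcription of that branch during fasting. Glucagon and insulin act on these genes in opposite directions, and Pck1 and G6pc are known to respond to both within hours.

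In the GENCODE annotation of GRCm38 (mm10), the members lie at chr3:28697903-28731359 (Slc2a2, plus strand), chr5:31297443-31327314 (Gckr, plus), chrX:150588229-150643878 (Pfkfb1, plus), chr3:89136142-89146784 (Pklr, plus), chr2:173153048-173159273 (Pck1, plus), chr13:62864753-62888282 (Fbp1, minus), chr11:101367561-101377903 (G6pc, plus) and chr5:51454250-51567726 (Ppargc1a, minus). Exons of Pfkfb1 overlap those of Apex2, and exons of Pklr those of Hcn3, on the opposite strand; the sites of the probes were not used here. Of the 50-base windows of the annotated transcripts, those of 7 members matched no other gene, and 0.0151% of those of Ppargc1a did.

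The bases upstream of the start are shown for the 3 members that differed from vehicle in FROZ at 427 mg/kg-d, as RefSeq gives them for GRCm38.p6, 250 bases each, written 5′ to 3′ on the strand of the gene. They are shown because Slc2a2 and Fbp1 rose while Pck1 fell. Capitals mark matches, on either strand, to 4 short motifs searched: the core of the cAMP response element (ACGTCA), a forkhead or insulin response core (TGTTTTG), an HNF1 core (GTTAAT) and an E-box (CACGTG).
Slc2a2, chr3:28697653-28697902, plus: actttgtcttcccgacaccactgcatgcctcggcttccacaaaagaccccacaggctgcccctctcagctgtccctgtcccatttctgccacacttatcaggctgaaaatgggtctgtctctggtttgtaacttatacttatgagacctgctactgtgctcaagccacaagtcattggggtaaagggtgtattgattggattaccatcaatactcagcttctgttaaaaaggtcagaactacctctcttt
Pck1, chr2:173152823-173153072, plus: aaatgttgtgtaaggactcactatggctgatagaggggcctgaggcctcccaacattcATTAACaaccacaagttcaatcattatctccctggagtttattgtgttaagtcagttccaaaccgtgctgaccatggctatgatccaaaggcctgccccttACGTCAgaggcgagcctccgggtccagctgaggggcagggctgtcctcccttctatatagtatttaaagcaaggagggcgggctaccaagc
Fbp1, chr13:62888283-62888532, minus: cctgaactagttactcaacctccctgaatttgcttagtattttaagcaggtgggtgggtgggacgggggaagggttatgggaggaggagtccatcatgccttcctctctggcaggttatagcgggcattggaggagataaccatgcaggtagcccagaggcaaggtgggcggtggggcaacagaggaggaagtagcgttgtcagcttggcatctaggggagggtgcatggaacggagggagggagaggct

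The Pck1 window held the cAMP response element core, beginning 91 bases before the start, and the HNF1 core on the other strand, beginning 192 bases before it. The windows of Slc2a2 and Fbp1 held none of the 4 motifs. Of the members not shown, Ppargc1a held the cAMP response element core, Gckr and G6pc each held the forkhead and HNF1 cores, Pfkfb1 held the HNF1 core in 1 of 4 windows and Pklr held none in 2 windows. Of all 32851 RefSeq windows of that length, 6.47% held the cAMP response element core, 5.56% the forkhead core, 6.43% the HNF1 core and 6.02% the E-box. These matches describe letters only.

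Reads on listed genes came to between 6.67 and 9.83 M per FROZ library and between 1.83 and 6.00 M per FFPE library, as estimated from what 1 read is worth in CPM (counts per 1000000). The FROZ libraries had 12 to 61 genes at 0 and the FFPE libraries 65 to 1580. The 5 FFPE libraries with more than 900 genes at 0 belonged to animals 49, 52, 53 and 54 at 198 mg/kg-d and animal 73 at 313 mg/kg-d, so FFPE values that move by more than 1.5 times without them are given both ways. Of 8 hepatocyte markers, FROZ listed 7, none at 0 in any library, with a summed level between 22648 and 41274 CPM. Of the 7, 1 fell at 313 mg/kg-d while 1 rose and 1 fell at 427 mg/kg-d (0 rose and 4 fell at either dose under median-ratio scaling). By the same rule, given below, 26.7% and 30.1% of all FROZ genes differed from vehicle at these doses. In FFPE the sum of the hepatocyte markers was 41431 to 55577 CPM in controls and 29340 to 34629 CPM at 427 mg/kg-d, without overlap. There 1 of 7 fell. Of all 6673 FFPE genes, 299 had groups without overlap at that dose and 161 differed by that rule. The part of the lower sum in the results was not tested. Against vehicle, the median gene of FROZ stood 0.11 higher on the log2 scale at 313 mg/kg-d and 0.10 higher at 427 mg/kg-d. Scaling by the median ratio between libraries removed this shift by design, so its removal is not a test of its source. The median gene of FFPE stood 0.18 higher at 427 mg/kg-d, and 0.07 higher under that scaling.

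In FROZ, 6 of the 8 members differed from vehicle at 313 mg/kg-d and 3 at 427 mg/kg-d with a false discovery rate (FDR) under 0.05, taken over all genes of the table. None was called at 198 mg/kg-d, although 6 had an unadjusted limma p under 0.05 there. The background, the share of all genes called, was 1.56%, 26.7% and 30.1% in order of dose. At 313 mg/kg-d 2 members rose and 4 fell, with a median log2 fold change of -0.33 over the 8 beside 0.11 over all genes. At 427 mg/kg-d 2 rose and 1 fell, with a median of 0.06 beside 0.10. The members therefore did not move as a block: Slc2a2 and Fbp1 rose with dose, and Pck1 fell at both upper doses. Gckr, Pfkfb1 and Ppargc1a were called lower at 313 mg/kg-d and not at 427 mg/kg-d. Between those 2 doses, only Gckr had a step that was called. The step was 0.09 for Pfkfb1 (FDR 0.779) and 0.40 for Ppargc1a (FDR 0.365), so their upper doses were not told apart.

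**Figure D1:**
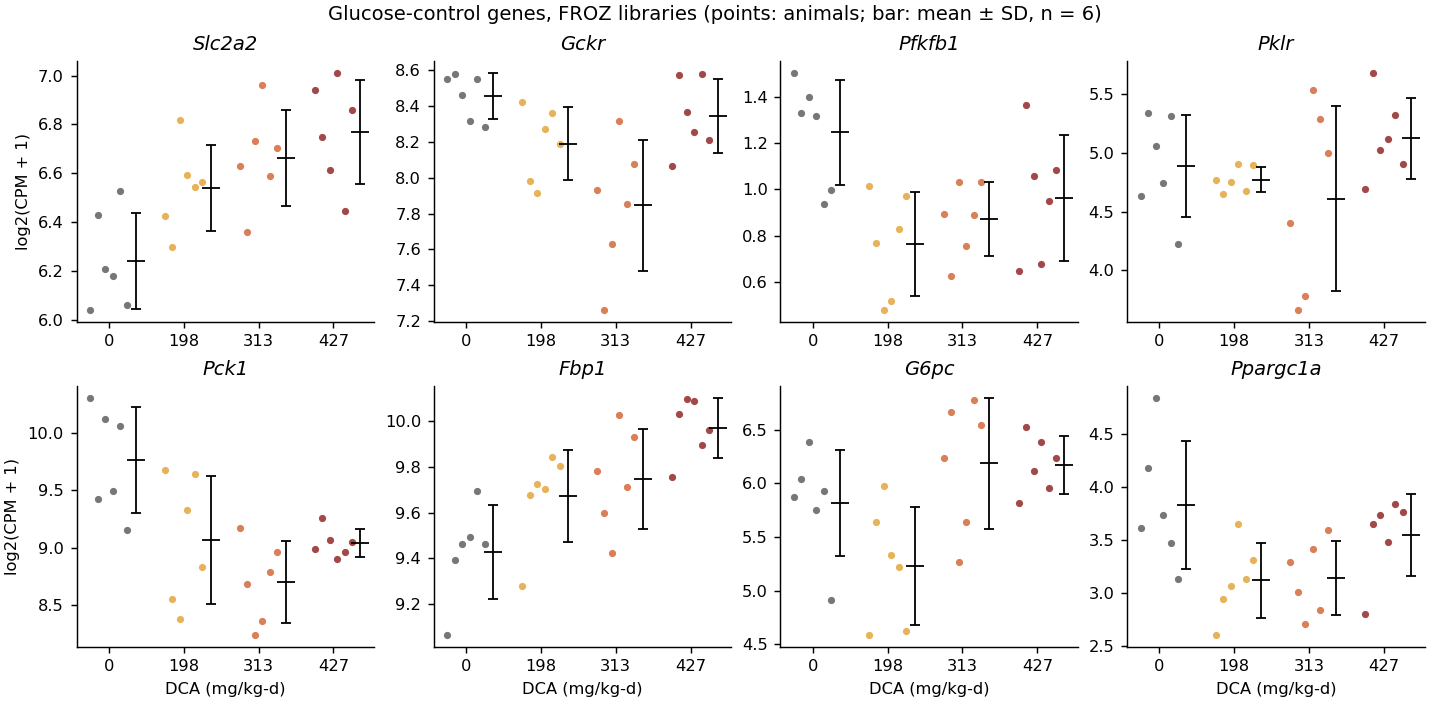
Level of each of the 8 genes in FROZ liver, as log2(CPM + 1) on the vertical axis, against DCA dose in mg/kg-d on the horizontal axis; points are animals and the bar is the mean ± SD (n = 6 per dose). Each panel has its own vertical scale. Fbp1 at 427 mg/kg-d lay above every vehicle control, Pck1 lay lower at the upper doses, and G6pc was lower at 198 than at 313 mg/kg-d.

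Slc2a2 encodes the low-affinity hexose carrier that lets hepatic glucose equilibrate with blood. In FROZ vehicle controls its level ran from 6.04 to 6.53 log2(CPM + 1) with a median of 6.19. It ran from 6.30 to 6.82 (median 6.55) at 198 mg/kg-d, from 6.36 to 6.96 (median 6.67) at 313 mg/kg-d and from 6.44 to 7.01 (median 6.81) at 427 mg/kg-d. The groups overlapped, with 4, 5 and 5 of 6 treated animals above the highest control in order of dose, and every treated animal lay above the mean of the controls. The log2 fold change was 0.30 ± 0.11 (SE) at 198 mg/kg-d (FDR 0.146), 0.42 ± 0.11 at 313 mg/kg-d (FDR 0.0051) and 0.53 ± 0.11 at 427 mg/kg-d (FDR 0.00048), or 1.44-fold at the top dose. Under median-ratio scaling the change was 0.28 at 313 mg/kg-d (FDR 0.073, no longer called) and 0.39 at 427 mg/kg-d (FDR 0.012). Neighbouring treated groups did not differ beyond their spread, at 0.12 (95% CI -0.10 to 0.35) from 198 to 313 mg/kg-d and 0.11 (-0.12 to 0.33) from 313 to 427 mg/kg-d.

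Gckr encodes a regulatory protein that restrains the phosphorylation of glucose in hepatocytes. The 6 FROZ controls lay close together between 8.28 and 8.58, with a median of 8.50. Levels ran from 7.91 to 8.42 (median 8.23) at 198 mg/kg-d, from 7.26 to 8.32 (median 7.89) at 313 mg/kg-d and from 8.06 to 8.58 (median 8.31) at 427 mg/kg-d. The order was not that of dose: 5 of 6 animals at 313 mg/kg-d lay below every control, against 3 of 6 at 427 mg/kg-d, where another animal lay above every control. The log2 fold change was -0.27 ± 0.13 at 198 mg/kg-d (FDR 0.296), -0.61 ± 0.13 at 313 mg/kg-d (FDR 0.00095) and -0.11 ± 0.13 at 427 mg/kg-d (FDR 0.555). Between the upper doses Gckr rose by 0.50 ± 0.13 (FDR 0.034), where 3.07% of all genes were called. That step was lost on leaving out any of animals 74, 75, 77, 98, 99 or 101, with an FDR of at most 0.0922, while the fall at 313 mg/kg-d kept its call in all 21 alternatives run.

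Pfkfb1, the liver form of the kinase and phosphatase that sets fructose 2,6-bisphosphate, was the member nearest the detection limit. FROZ controls ran from 0.937 to 1.502 (median 1.32), or a median of 12.98 reads. Treated animals ran from 0.48 to 1.01 (median 0.80) at 198 mg/kg-d, from 0.62 to 1.03 (median 0.89) at 313 mg/kg-d and from 0.65 to 1.36 (median 1.00) at 427 mg/kg-d, with medians of 6.00, 6.98 and 7.99 reads. All groups overlapped the controls, with 4, 4 and 2 of 6 animals below every control. The log2 fold change was -0.48 ± 0.14 (FDR 0.065), -0.38 ± 0.14 (FDR 0.042) and -0.28 ± 0.14 (FDR 0.124) in order of dose. The call at 313 mg/kg-d failed in 9 of 20 alternatives, so at this depth the difference is given as a value near the threshold; the deposited offset of 1 CPM also compresses a gene of this level, and with an offset of 0.1 CPM the change at 313 mg/kg-d was -0.66 (FDR 0.072).

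Pklr encodes liver pyruvate kinase, which makes pyruvate in the last step of glycolysis and is induced by carbohydrate feeding. Its FROZ level ran from 4.23 to 5.34 (median 4.90) in controls and from 4.65 to 4.91 (median 4.76) at 198 mg/kg-d. It ran from 3.66 to 5.53 (median 4.70) at 313 mg/kg-d and from 4.69 to 5.68 (median 5.07) at 427 mg/kg-d. The 313 mg/kg-d group spread widely, with 2 animals below and 1 above every control (SD 0.79, against 0.11 at 198 mg/kg-d). No dose was called: the log2 fold change was -0.11 (95% CI -0.62 to 0.40), -0.28 (-0.79 to 0.23) and 0.24 (-0.27 to 0.75) in order of dose, with an FDR of at least 0.448.

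Pck1 encodes cytosolic PEPCK, which turns oxaloacetate into phosphoenolpyruvate and commits carbon to gluconeogenesis. In FROZ it ran from 9.16 to 10.31 (median 9.78, or 896 CPM) in controls and from 8.37 to 9.68 (median 9.08) at 198 mg/kg-d. It ran from 8.24 to 9.18 (median 8.74, or 426 CPM) at 313 mg/kg-d and from 8.90 to 9.26 (median 9.02) at 427 mg/kg-d. All 18 treated animals lay below the mean of the controls, and 3, 5 and 5 of 6 lay below every control in order of dose. The log2 fold change was -0.70 ± 0.21 at 198 mg/kg-d (FDR 0.082), -1.06 ± 0.21 at 313 mg/kg-d (FDR 0.00046) and -0.72 ± 0.21 at 427 mg/kg-d (FDR 0.010). At 313 mg/kg-d this was a 2.09-fold fall, and Pck1 was the only member past both the FDR and a 2-fold change at any dose, where 2.31% of all genes passed both. The FDR calls at 313 and 427 mg/kg-d held in all 21 alternatives. The value at 313 mg/kg-d ran from -1.20 to -0.95 over them, so the 2-fold change was not reached in every one. The lowest mean was that at 313 mg/kg-d, yet neither step between treated groups was called (-0.37, FDR 0.279, and 0.34, FDR 0.418). The spread between animals was 0.56 (SD) at 198 mg/kg-d and 0.12 at 427 mg/kg-d.

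Fbp1 encodes fructose-1,6-bisphosphatase, the step that opposes phosphofructokinase. The study's probe set attenuated Fbp1 equally in all libraries, which lowers its counted level and not the ratio between libraries. Controls in FROZ ran from 9.06 to 9.69 (median 9.46). Treated animals ran from 9.28 to 9.84 (median 9.71) at 198 mg/kg-d, from 9.42 to 10.03 (median 9.75) at 313 mg/kg-d and from 9.75 to 10.10 (median 9.99) at 427 mg/kg-d. At the top dose all 6 animals lay above every control, as was the case, in either direction, for 14.7% of all genes. The log2 fold change was 0.24 ± 0.11 (FDR 0.251), 0.32 ± 0.11 (FDR 0.032) and 0.54 ± 0.11 (FDR 0.00038) in order of dose, or 1.46-fold at 427 mg/kg-d. The call at 313 mg/kg-d failed in 7 of 21 alternatives, among them median-ratio scaling (0.18, FDR 0.283) and the fit of that dose with its controls alone (FDR 0.054). At 427 mg/kg-d it held in all 21, with 0.40 (FDR 0.0095) under median-ratio scaling.

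G6pc encodes the catalytic subunit of glucose-6-phosphatase, the last step before glucose leaves the hepatocyte. FROZ levels ran from 4.91 to 6.38 (median 5.90) in controls and from 4.59 to 5.97 (median 5.27) at 198 mg/kg-d. They ran from 5.26 to 6.77 (median 6.39) at 313 mg/kg-d and from 5.81 to 6.53 (median 6.17) at 427 mg/kg-d. Every treated group overlapped the controls, and none differed from them by the test: the log2 fold change was -0.59 (95% CI -1.11 to -0.07, FDR 0.229), 0.37 (-0.15 to 0.89, FDR 0.296) and 0.36 (-0.16 to 0.88, FDR 0.314). The step from 198 to 313 mg/kg-d was a rise of 0.96 ± 0.25 (FDR 0.013), or 1.95-fold, and G6pc was the only member called at that step, beside 11.7% of all genes. It held in all 14 alternatives, with values between 0.83 and 1.15. The median reads were 275 and 658 in these groups.

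Ppargc1a encodes the coactivator PGC-1 alpha, whose hepatic targets include Pck1 and G6pc. FROZ controls ran from 3.13 to 4.84 (median 3.67, or 107 reads). Treated animals ran from 2.61 to 3.65 (median 3.10) at 198 mg/kg-d, from 2.71 to 3.59 (median 3.15) at 313 mg/kg-d and from 2.81 to 3.84 (median 3.69) at 427 mg/kg-d. All groups overlapped, and 12 of 12 animals at the lower doses lay below the mean of the controls. The log2 fold change was -0.71 ± 0.23 (FDR 0.102), -0.68 ± 0.23 (FDR 0.027) and -0.28 ± 0.23 (FDR 0.389) in order of dose. The call at 313 mg/kg-d failed in 5 of 21 alternatives: without control animal 5, the highest of the controls, the change was -0.48 (FDR 0.087), and it was also lost without any of animals 4, 74, 75 or 77.

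A linear slope on dose was called for 3 of 8 members in FROZ, beside 32.2% of all genes. Slc2a2 rose by 0.12 ± 0.02 log2 units per 100 mg/kg-d (FDR 0.00021) and Fbp1 by 0.12 ± 0.02 (FDR 0.00034), while the slope of Pck1 was -0.20 ± 0.05 (FDR 0.0053). These calls held in all 27 alternatives run for each. Slc2a2 and Fbp1 had group means that were higher at each next dose. The means of Pck1, Gckr and Pklr, the last called at no dose, were lowest at 313 mg/kg-d. Those of G6pc, Pfkfb1 and Ppargc1a were lowest at 198 mg/kg-d.

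In FFPE, none of the 6 listed members was called at any dose, beside 0.0599%, 1.08% and 2.41% of all genes at 198, 313 and 427 mg/kg-d. By unadjusted limma p, 1, 0 and 1 of the 6 fell under 0.05 in order of dose. None had a slope past the FDR, which 2.17% of genes had. The spread within dose groups was wider than in FROZ for each of the 6, for example 1.03 against 0.20 (SD) for Slc2a2 and 0.74 against 0.41 for Pck1. The FFPE groups at 198 and 313 mg/kg-d also held the shallow libraries, whose part in the result was not tested apart from leaving them out.

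**Figure D2:**
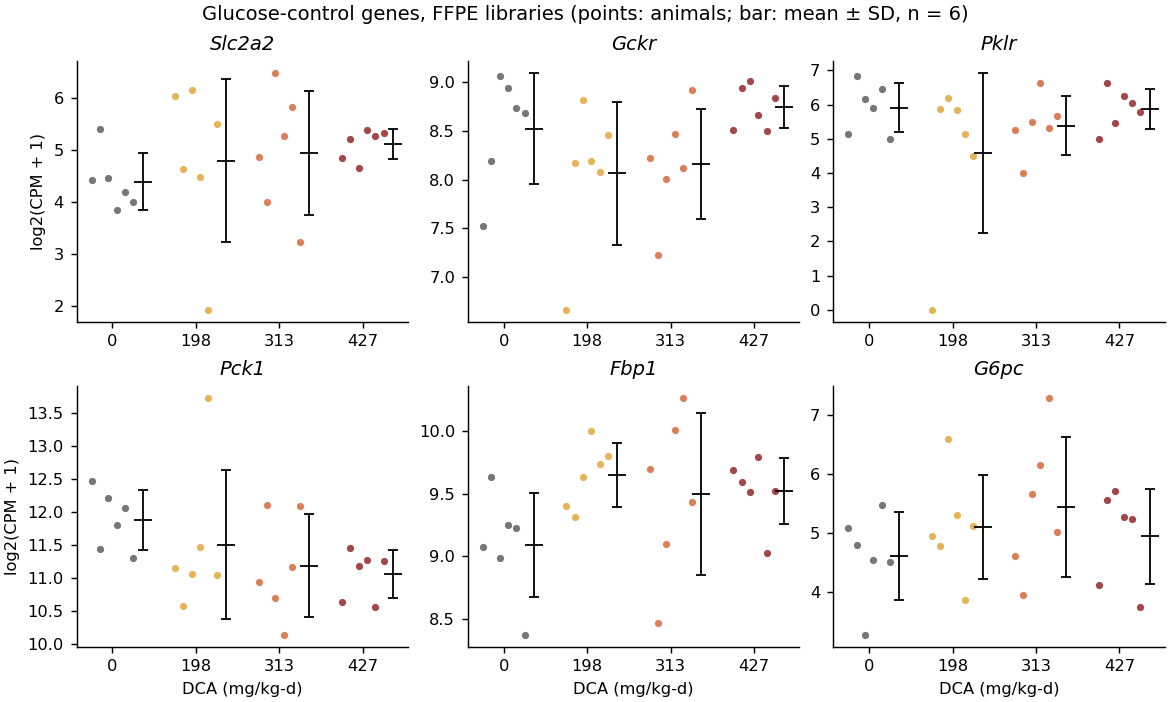
Level of the 6 genes listed in FFPE liver, as log2(CPM + 1), against DCA dose in mg/kg-d; points are animals and the bar is the mean ± SD (n = 6 per dose). Each panel has its own vertical scale. Single animals at 198 mg/kg-d stand far from the rest, at 0 for Pklr and at 13.73 for Pck1.

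Pck1 was lower at every dose in FFPE as well. It ran from 11.31 to 12.48 (median 11.93) in controls, from 10.58 to 13.73 (median 11.11) at 198 mg/kg-d, from 10.14 to 12.11 (median 11.05) at 313 mg/kg-d and from 10.57 to 11.45 (median 11.22) at 427 mg/kg-d. At the top dose 5 of 6 animals lay below every control and all 6 below their mean, and the log2 fold change was -0.82 ± 0.36 (unadjusted limma p 0.030, FDR 0.451). It passed the FDR there in a fit of the 427 mg/kg-d group and its controls alone (0.012) and with array quality weights (0.0080), and not in the other alternatives. At 198 mg/kg-d the change was -0.37 ± 0.36 with all libraries and -0.82 without animal 53, while without animal 50 it was -0.19. Without the 4 shallow libraries, which left 2 animals, it was -1.06 ± 0.39 (FDR 0.999).

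The other FFPE members gave wide intervals. Fbp1 ran from 8.37 to 9.63 (median 9.15) in controls and from 9.03 to 9.79 (median 9.56) at 427 mg/kg-d, with log2 fold changes of 0.56, 0.40 and 0.43 in order of dose (FDR at least 0.351). Slc2a2 ran from 3.85 to 5.41 (median 4.30) in controls and from 4.65 to 5.38 (median 5.24) at 427 mg/kg-d, with changes of 0.40, 0.55 and 0.72 (FDR at least 0.814). Its value at 198 mg/kg-d turned on single libraries, at 0.97 without animal 53, 0.13 without animal 51 and 0.15 without animal 49. For both, the 427 mg/kg-d group overlapped the controls, and all 6 Slc2a2 values there lay above the control mean. Gckr ran from 7.53 to 9.06 in controls and from 8.50 to 9.01 at 427 mg/kg-d, with changes of -0.46, -0.36 and 0.22 (FDR at least 0.543). G6pc ran from 3.27 to 5.48 in controls and changed by 0.49, 0.83 and 0.33 (FDR at least 0.631), and Pklr ran from 4.99 to 6.83 in controls and changed by -1.32, -0.53 and -0.05 (FDR at least 0.460). Without animal 49, whose Pklr was listed at 0, the changes at 198 mg/kg-d were -0.40 for Pklr and -0.18 for Gckr. Without the 4 shallow libraries, which left 2 animals at 198 mg/kg-d, they were 0.13 for Pklr, -0.03 for Gckr, 1.01 for Slc2a2, 1.08 for G6pc and 0.38 for Fbp1, none of them called. Without animal 73 the values at 313 mg/kg-d were between -0.64 (Pck1) and 1.00 (G6pc), each within 1.5 times that with all libraries. At 313 mg/kg-d the change without animal 74 was -0.18 for Gckr and -0.25 for Pklr, and without animal 77 it was 0.46 for G6pc and 0.25 for Fbp1.

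**Figure D3:**
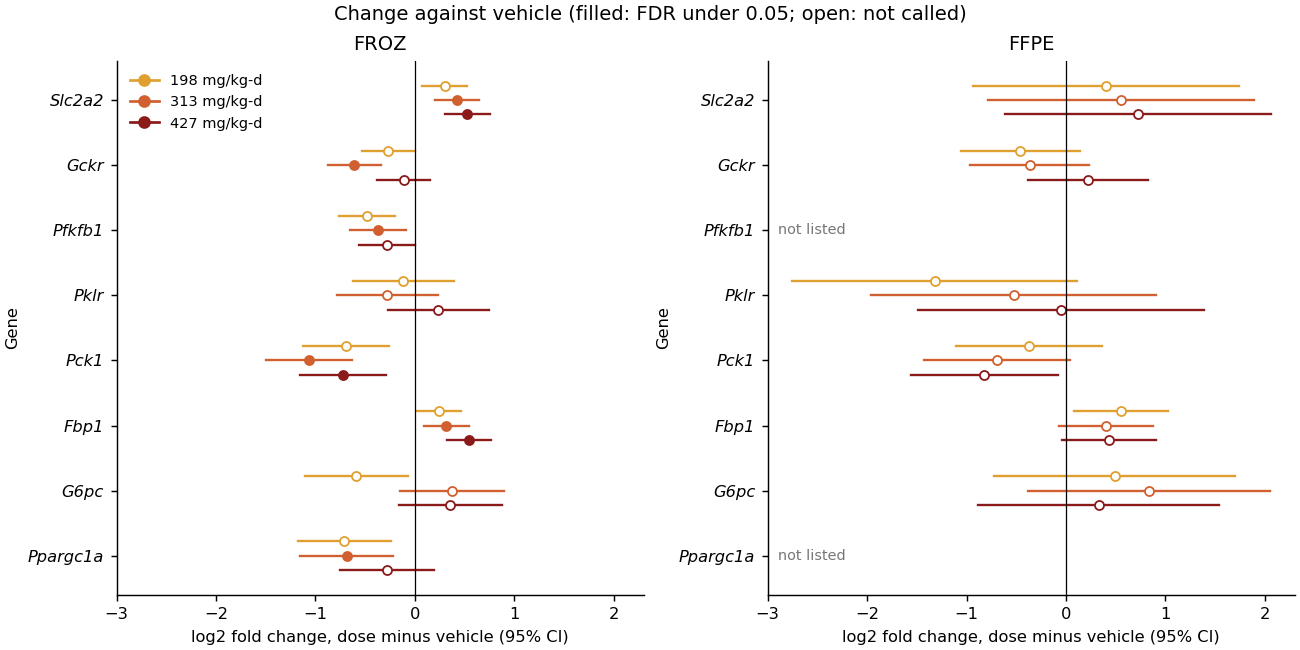
Log2 fold change against vehicle for each gene (rows) with its 95% confidence interval from limma, in FROZ (left) and FFPE (right), at 198, 313 and 427 mg/kg-d; filled points passed an FDR of 0.05 and open points did not. Filled points appear in FROZ alone, and the FFPE intervals are wider.

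The dose effect was also compared between preservations within animals, as each animal's FFPE minus FROZ difference. No member was called at any dose, and among the 6591 genes that FROZ and FFPE share, 2, 0 and 2 were called in order of dose (750, 487 and 146 had an unadjusted p under 0.05). The intervals were wide: the response of Pck1 at 427 mg/kg-d was 0.10 lower in FFPE (95% CI -0.83 to 0.63) and that of Slc2a2 0.19 higher (-1.02 to 1.40). For G6pc at 198 mg/kg-d, where the 2 preservations had opposite signs, the difference was 1.08 (-0.14 to 2.29, FDR 0.494). Of the 6 shared members, 5, 6 and 4 had the same sign of change in both tables in order of dose, the exceptions being G6pc at the lowest dose and Gckr and Pklr at the highest. Without the shallow libraries the counts were 4, 6 and 4.

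Animals of a dose group differed from each other in ways that the members shared in part. Deviations from the dose means were correlated over 24 FROZ livers, with Pearson r between -0.32 and 0.77 and a median of 0.26 over 28 pairs of members, given as descriptions that share library and depth. The highest was Gckr with Pklr, at 0.77 in FROZ and 0.71 in FFPE. In animal 74 both genes were the lowest of the 313 mg/kg-d group in both preservations, at 7.26 and 3.66 in FROZ and at 7.23 and 3.99 in FFPE. Without animal 74 the FROZ r was 0.68. The FFPE r rested more on animal 49, whose Pklr was listed at 0, and was 0.46 without it. In FFPE the lowest pair was Slc2a2 with Pck1 at -0.73, against -0.17 in FROZ, and it was -0.46 without animal 53, which had the lowest Slc2a2 (1.92) and the highest Pck1 (13.73) of its group.

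**Figure D4:**
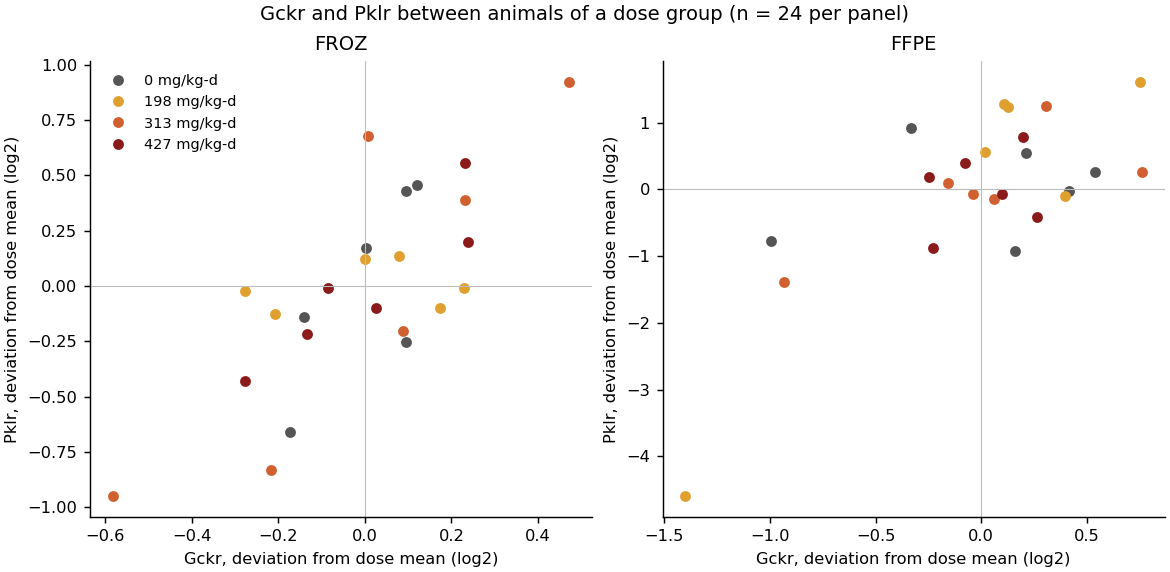
Deviation of Pklr from its dose-group mean (vertical, log2 units) against that of Gckr (horizontal, log2 units) for 24 animals in FROZ (left) and FFPE (right), coloured by dose. The points rise together in both panels (r = 0.77 and 0.71), and the lowest FFPE point is animal 49.

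Between the 2 libraries of an animal, deviations from the dose means correlated best for Pck1, with r = 0.62 over 24 animals, and next for Pklr (0.38), Fbp1 (0.35) and Slc2a2 (0.22), with Gckr (0.08) and G6pc (0.06) near 0. Over the 19 animals whose FFPE library had no more than 900 genes at 0, r was 0.71 for Pck1, 0.80 for Pklr, 0.32 for Fbp1, 0.37 for Slc2a2, 0.39 for Gckr and -0.02 for G6pc. Pck1 read higher in FFPE than in FROZ in 24 of 24 animals, Pklr in 22 and Gckr in 17. G6pc did so in 6 animals, Fbp1 in 5 and Slc2a2 in 0. The tables were scaled separately over different genes, so levels were not tested between them.

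Over the 24 FROZ libraries, dose effects included, the genes most like each member by Pearson r, among genes whose mean was 10 CPM or more, were as follows. Those of Slc2a2 were Mia2 (0.83), Shmt2 (0.83) and Letmd1 (0.83), and those of Fbp1 were Samd8 (0.86), Tkfc (0.82) and Tec (0.81). Those of Pck1 were Aldh2 (0.85), Fgd6 (0.85) and Mroh1 (0.83), and those of G6pc were Slc38a4 (0.80), Ppp2r2a (0.76) and Kxd1 (0.76). Pklr was most like Pygl (0.90), Pcca (0.88) and Gnmt (0.77), while Gckr was most like Faah (0.88), Trap1 (0.87) and Got1 (0.85). Pfkfb1 was most like Foxo1 (0.75), with Epc1 at 0.66, and Ppargc1a was most like Got1 (0.69), Tsc2 (0.68) and Cyp2c29 (0.68). Pygl encodes liver glycogen phosphorylase, Tkfc triokinase and Got1 the cytosolic aspartate aminotransferase.

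The other genes of these pathways are given from 5 lists, for FROZ unless stated. No gene of the first 4 lists was called at 198 mg/kg-d, and in the list of regulators Foxo1 alone was called there. The counts at the upper doses stand beside 26.7% and 30.1% of all genes called, of which 77.0% and 75.6% rose. Under median-ratio scaling 48.6% and 50.0% of the called genes rose at these doses. Nothing is read from the counts as particular to a list. Of 20 glycolysis enzymes sought, FROZ listed 15, without Gapdh, Pgk1, Eno1, Pfkm and Hk3. Of the 15, 5 rose and 1 fell at 313 mg/kg-d and again at 427 mg/kg-d. Their median log2 fold change was 0.09 at the top dose beside 0.10 for all genes. At 427 mg/kg-d Pgam1, a phosphoglycerate mutase, rose by 0.75 ± 0.12 (FDR 2.1e-05) and Tpi1, triosephosphate isomerase, by 0.54 ± 0.09 (FDR 3.5e-05). Both kept their call under median-ratio scaling, where 4 genes of the list rose and 2 fell. Pfkl, the liver phosphofructokinase, was the gene that fell (-0.52 ± 0.10), and is named after its value was seen.

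Of 19 listed gluconeogenesis enzymes and carriers, 6 rose and 1 fell at 313 mg/kg-d, and 6 rose and 0 fell at 427 mg/kg-d. The median log2 fold change at 427 mg/kg-d was 0.23. Gpd1, the cytosolic glycerol-3-phosphate dehydrogenase, rose by 1.01 ± 0.14 (FDR 4.4e-06) and Slc16a1, a lactate and pyruvate carrier, by 0.79 ± 0.12. Fbp2, the muscle form of the Fbp1 enzyme, rose by 0.77 ± 0.21 from a low level, and Mpc2, a subunit of the mitochondrial pyruvate carrier, by 0.61 ± 0.08. The gene that fell at 313 mg/kg-d was Got1 (-0.62 ± 0.17). Under median-ratio scaling 5 rose and 2 fell at 313 mg/kg-d, and 4 rose and 1, the pyruvate carboxylase gene Pcx, fell at 427 mg/kg-d.

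Of 12 listed genes of fructose, glycerol and hexose handling, 2 rose and 1 fell at 313 mg/kg-d and 6 rose and 0 fell at 427 mg/kg-d, with a median log2 fold change of 0.39 at the top dose. Among the genes that rose were Tkfc (1.23 ± 0.15, FDR 2.9e-07), Khk, or ketohexokinase (0.82 ± 0.16), and the glycerol kinase gene Gk (0.57 ± 0.08). These 3 calls stood under median-ratio scaling, where Slc2a8, a hexose carrier of the same family as Slc2a2, was the 1 gene that fell.

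The next list joins bifunctional enzymes with Tigar, Txnip, protein kinase A subunits and phosphodiesterases. Of its 11 listed genes, 1 rose and 1 fell at 313 mg/kg-d and 3 rose and 2 fell at 427 mg/kg-d. Txnip, a glucose-responsive inhibitor of glucose uptake, rose by 1.25 ± 0.15 (FDR 4.1e-07). Of the paralogs of Pfkfb1, Pfkfb3 fell (-0.94 ± 0.28, FDR 0.011), as did Pfkfb2 (-0.56 ± 0.10, FDR 8.1e-05), and Pfkfb4 was not called (-0.19 ± 0.16, FDR 0.424). Pde3b, a phosphodiesterase that breaks down cAMP, rose by 0.45 ± 0.13, a call that was lost under median-ratio scaling (0.31, FDR 0.078). Under that scaling Prkar1a also lost its call, so that 0 rose and 1 fell at 313 mg/kg-d and 1 rose and 2 fell at 427 mg/kg-d.

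The list of regulators of hepatic glucose output holds mostly transcriptional regulators, with the hormone receptor genes Gcgr and Insr and the adaptor genes Irs1 and Irs2. Of its 27 listed genes, 2 rose and 3 fell at 313 mg/kg-d and 4 rose and 1 fell at 427 mg/kg-d. Srebf1, which drives lipogenic genes under insulin, rose by 1.73 ± 0.27 (FDR 1.9e-05), Creb3l3 by 0.62 ± 0.10 and the insulin receptor substrate gene Irs1 by 0.59 ± 0.17. Foxo1, the forkhead factor that insulin restrains and that acts on Pck1 and G6pc, was lower at all 3 doses, at -0.50 ± 0.13, -0.59 ± 0.13 and -0.47 ± 0.13 (FDR 0.041, 0.00093 and 0.0052). Under median-ratio scaling 0 rose and 5 fell at 313 mg/kg-d, and 3 rose and 2 fell at 427 mg/kg-d.

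**Figure D5:**
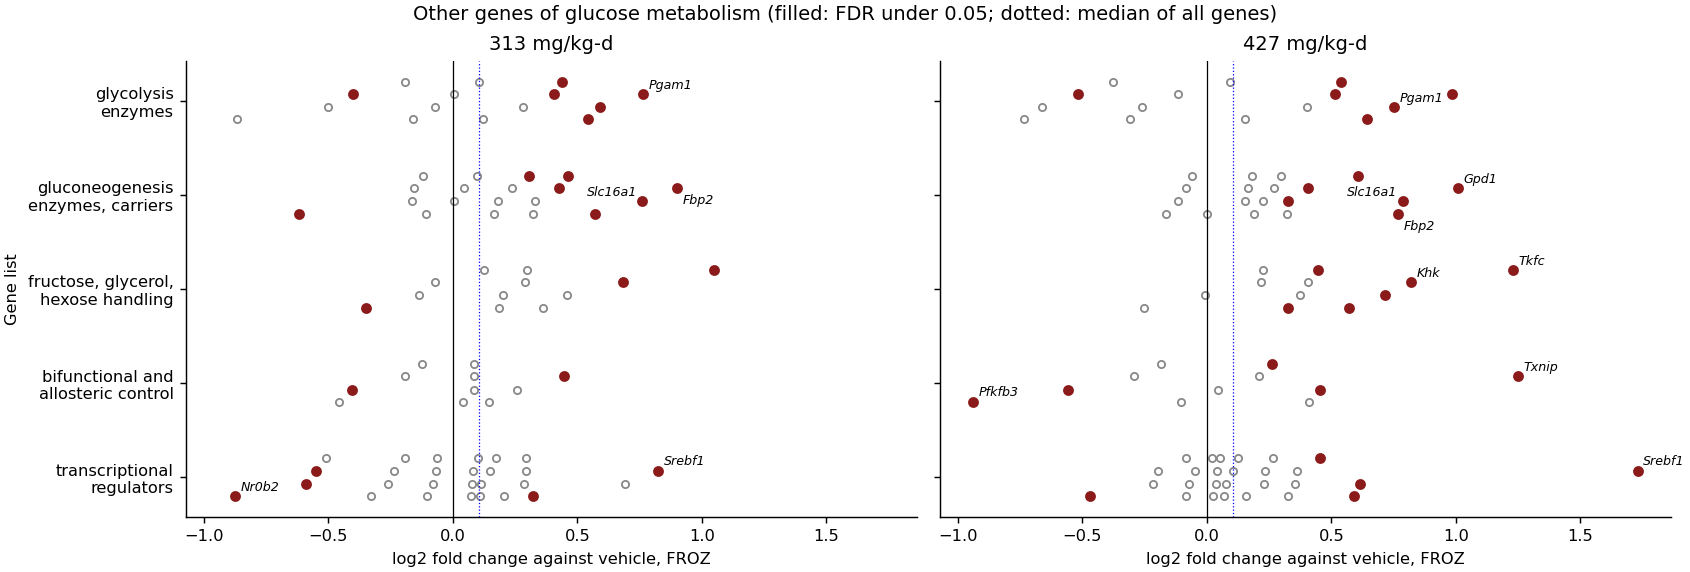
Log2 fold change against vehicle in FROZ at 313 mg/kg-d (left) and 427 mg/kg-d (right) for the listed genes of 5 lists (rows); filled points passed an FDR of 0.05, open points did not, and the dotted line is the median of all genes. Among named points at 427 mg/kg-d, Srebf1, Txnip and Tkfc lie farthest to the right and Pfkfb3 farthest to the left.

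In FFPE few genes of these lists were called. Gpd1 rose by 0.92 ± 0.17 at 427 mg/kg-d (FDR 0.0012), and Sds, serine dehydratase, was -1.18 ± 0.24 at 198 mg/kg-d (FDR 0.040). Sds was named after its value was seen. Lists had 12, 14, 7, 7 and 22 genes listed there, in the order above.

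Markers of liver zones and of other cell types were counted in FROZ, beside 26.7% and 30.1% of all genes called at 313 and 427 mg/kg-d. Of all 11275 genes, 2317 rose and 693 fell at 313 mg/kg-d, and 2565 rose and 826 fell at 427 mg/kg-d. Under median-ratio scaling 48.6% and 50.0% of the called genes rose at these doses. In whole tissue fewer cells of a type and less RNA per cell cannot be told apart. Of 11 pericentral hepatocyte markers, 7 fell and 2 rose at 313 mg/kg-d, and 4 fell and 2 rose at 427 mg/kg-d. The summed level of the pericentral markers was 10518 to 14820 CPM in controls and 8748 to 12416 CPM at 198 mg/kg-d. It was 9045 to 11388 CPM at 313 mg/kg-d and 12091 to 14510 CPM at 427 mg/kg-d. The means of Gckr, Pck1 and Pklr, the last called at no dose, were lowest at 313 mg/kg-d. Neither step of Pck1 between treated groups was called, and a link of these genes to the zone markers was not tested. Of 11 periportal markers, which mark the zone where gluconeogenesis is strongest, 1 rose and 1 fell at 313 mg/kg-d and 2 rose and 1 fell at 427 mg/kg-d, with sums of 8453 to 11360, 7261 to 10111 and 10187 to 11348 CPM. Under median-ratio scaling 1 periportal marker rose and 5 fell at 313 mg/kg-d and 1 rose and 3 fell at 427 mg/kg-d, while 1 pericentral marker rose and 6 fell at 427 mg/kg-d. No marker of either zone was at 0 in a FROZ library.

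Of 7 listed Kupffer cell and macrophage markers, 0 were called at 313 mg/kg-d and 5 fell at 427 mg/kg-d, with a summed level of 214 to 289 CPM in controls and 133 to 205 CPM at 427 mg/kg-d. In FFPE 4 were listed, with sums of 252 to 477 CPM in controls and 158 to 226 CPM at 427 mg/kg-d, and 0 were called. Of 8 endothelial markers, Stab2 alone fell at either upper dose, and under median-ratio scaling 3 fell at 313 mg/kg-d and 4 at 427 mg/kg-d. Of 7 stellate cell markers, 1 rose and 2 fell at 313 mg/kg-d and 1 fell at 427 mg/kg-d, and of 3 cholangiocyte markers none was called, while under median-ratio scaling Spp1 fell at 427 mg/kg-d. Of 7 lymphocyte and erythroid markers, Hba-a1 and Alas2 fell at both upper doses, and the summed level was 76.7 to 115 CPM in controls and 49.2 to 111 CPM at 427 mg/kg-d. The 1 marker at 0 in 2 FROZ libraries was Cd3g, and Lyve1 was at 0 in 1. The part of these shifts in the changes of the 8 genes was not tested.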

How the data were processed

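The deposited values were log2(CPM + 1) per gene, which the authors made from TempO-Seq reads aligned to mm10 with STAR in Partek Flow (the submitters' notes name STAR 2.6), quantified by expectation maximization on RefSeq transcripts, given an offset of 0.0001, filtered at a geometric mean of 1 and scaled to CPM, FROZ and FFPE separately. Highly abundant transcripts, Fbp1 among them, were attenuated alike in all libraries. Reads per value were estimated from the smallest CPM step; the values keep no integer counts, so no count model was used, and the reads recovered were whole within 0.05 for 96.3 to 97.2% of low FROZ values and 76.8 to 94.5% of low FFPE values. Totals and reads cover counting error only.

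Groups came from the sample labels. Each dose was compared with vehicle, and with the next dose, in limma 3.58.1 (R 4.3.3) with a trended prior on all 24 libraries of a table. FDR is Benjamini-Hochberg over all genes of the table, two-sided, called under 0.05, and intervals are 95%. A slope on dose and, within animals, the FFPE minus FROZ difference were fitted likewise. The study's own model, Partek GSA, was not run here. The code was tested on simulated data. Sequences were read with Python 3.11.15.

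The 2 libraries of an animal share its number in the labels, which pairs them. Over 4815 genes the median correlation of deviations was 0.13 within animals and -0.02 between animals of a dose. Deviations in a dose group sum to 0, which pulls the value between animals below 0. Within animals the correlation was over 0.1 in 14 of 24, and 21 of 24 animals matched their own number best. The animals of a group are separate mice; the labels give no batch.

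All 8 members are named. For each pathway list, up to 4 genes were named, those with the largest change at 427 mg/kg-d in FROZ among those called; other names were chosen after their values were seen. Some genes these rules select are not reported here by name, but stay in the counts. The members and lists were chosen with earlier results of these data known. Alternatives were offsets of 0.1 and 10 CPM, a minimum mean of 10 CPM, median-ratio scaling, CPM over shared genes, other priors, array weights, fits of 2 groups, dose rank and leaving out each animal. Leaving out the FFPE libraries with over 900 genes at 0 was chosen after seeing the data.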

Additional observations from a re-analysis of the deposited data

Results flagged for a closer look

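In 6 of 56 groups of 6 libraries, a library stood apart from the other 5 (gap to the next over the whole range above 0.625), and chance alone flags about 1 group in 20. At 198 mg/kg-d in FROZ, Fbp1 of animal 49 was 9.28, below the next value of 9.68. At 427 mg/kg-d in FROZ, Ppargc1a of animal 97 was 2.81, below 3.48. The other flags were in FFPE. Animal 49, whose library had 1.83 M reads and 1580 genes at 0, had Gckr at 6.66 (next 8.08) and Pklr at 0 (next 4.50), where 3 of its reads would give 1.40. Animal 53, with 3.94 M reads and 960 genes at 0, had Pck1 at 13.73 (next 11.48). Animal 101 had Fbp1 at 9.03 at 427 mg/kg-d (next 9.51).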

How the results depend on the processing

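None of the 102 member values reversed among called results in 1937 alternative values: 1899 kept their side of the threshold, 28 lost a call and 10 gained one. Most of the 102 were not called and could not lose a call. The 28 losses were all in FROZ. At 313 mg/kg-d they fell on Pfkfb1 (9 of 20 alternatives), Fbp1 (7 of 21), Ppargc1a (5 of 21) and Slc2a2 (1 of 21). The others fell on the step of Gckr from 313 to 427 mg/kg-d (6 of 14). In FROZ, 0 members were called at 198 mg/kg-d, but 1 was under median-ratio scaling (Pfkfb1) and 2 with array weights (Pfkfb1 and Pck1). At 313 mg/kg-d 3 to 6 were called on leaving out single animals, 3 without control animal 4. In FFPE at 427 mg/kg-d, 1 (Pck1) was called with array weights and 1 in the fit of 2 groups. Gckr fell from 198 to 313 mg/kg-d under median-ratio scaling (FDR 0.039) and without animal 76 (FDR 0.022). The causes were not tested.

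Over all genes, FROZ calls at 198 mg/kg-d (176) became 299 at a mean of at least 10 CPM, 100 with an untrended prior and 88 in the fit of 2 groups, and ranged from 51 to 215 on leaving out animals. Genes past a 2-fold change as well (12, 261 and 395 in order of dose) became 22 at 198 and 467 at 313 mg/kg-d with an offset of 0.1 CPM, 4, 110 and 194 with 10 CPM, and 7 at 198 mg/kg-d with the CPM minimum, with 7 to 15 on leaving out animals at 198 mg/kg-d. The share of FROZ calls that rose was 71.6%, 77.0% and 75.6%, and 23.4%, 48.6% and 50.0% under median-ratio scaling; in the fit of 2 groups it was 60.2% at 198 mg/kg-d. In FFPE at 427 mg/kg-d it was 64.0%, and 52.1% under median-ratio scaling.

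FFPE calls (4, 72 and 161, of which 4, 54 and 121 past 2-fold) became 9 and 9 at 198 mg/kg-d with an offset of 10 CPM, 7 and 7 with the CPM minimum, 35 and 35 at 313 mg/kg-d and 94 at 427 mg/kg-d with an untrended prior, 524 and 281 at 427 mg/kg-d with array weights, and 427 and 232 in the fit of 2 groups. Without the shallow libraries they were 1 and 1, 153 and 101, and 297 and 191. Leaving out animals gave 2 to 40 (2 to 34 past 2-fold) at 198 mg/kg-d and 49 to 126 (38 to 102) at 313 mg/kg-d.

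Without the replicate block by animal, 1 gene at 198 mg/kg-d and 1 at 313 mg/kg-d differed in response between preservations, against 2 and 0 with it, and 0 to 10 and 0 to 1 on leaving out animals; no call of a member changed.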
